A study of Mus musculus with 6 samples.

Results

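The 10 genes described here encode proteins of the cell-cell junctions that hold cardiomyocytes together, and they were chosen by symbol. They are the desmosomal genes *Pkp2*, *Dsp*, *Jup*, *Dsg2* and *Dsc2*, the adherens junction genes *Cdh2*, *Ctnna1*, *Ctnna3* and *Ctnnb1*, and the scaffold gene *Tjp1*. Each symbol matched 1 Ensembl gene among the 28777 genes in the deposited count table, and all 10 were among the 28157 genes with more than 5 reads summed over the libraries, which were tested. The study measured total RNA of the mouse cardiac outflow tract at stage E13.5. The mutant group (n = 3 libraries) carried constitutive knockout alleles, 1 of *Notch1* and both of *Nos3* (Notch1+/-;Nos3-/-), on a C57/BL6J background. The wildtype group (n = 3 libraries) came from littermates with both genes intact (Notch1+/+;Nos3+/+). Each library was made from 3 pooled outflow tracts, 18 in all, so a value is that of a pool and not of 1 embryo, and the knockout alleles were not limited to 1 cell type. All 6 libraries carry the same flow cell and lane in their labels, so no sequencing batch could be separated.

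Desmosomes and adherens junctions join neighbouring cardiomyocytes by cadherins, whose extracellular parts bind those of the next cell. Inside the cell, armadillo proteins and plaque proteins tie desmosomal cadherins to intermediate filaments and classical cadherins to actin. In the adult heart these complexes gather with gap junctions at the intercalated disc, while in the embryonic heart they are still spread along the cell borders, and inherited variants in several of the genes are known in arrhythmogenic cardiomyopathy.

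The 3 wildtype libraries held 44387490, 43329291 and 34729103 counted reads, and the 3 mutant libraries held 38640033, 35551470 and 36917298. At this depth each of the 10 genes had between 655 and 31645 reads in every library, and whether depth limited any call was not tested. Levels are in CPM, the read count scaled to the size of each library with TMM factors, and levels compared between genes are CPM per kilobase of exon. Fold changes are log2 of mutant over wildtype with their standard error (SE), and a gene was called where the edgeR quasi-likelihood p, adjusted by Benjamini-Hochberg over all genes tested, was at most 0.05.

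The targeted genes were read first as a check of the labels. *Nos3* was at 31.8, 47.2 and 48.1 CPM in the wildtype libraries and at 22.1, 22.0 and 20.4 CPM in the mutant libraries, with no overlap of the groups. Its log2 fold change was −0.98 (SE 0.15), which edgeR did not call (adjusted p = 0.128) and DESeq2 did. With no intact allele in the label, the mutant libraries still held *Nos3* reads. *Notch1* was at 74.3, 88.2 and 83.6 CPM in wildtype and at 155, 160.5 and 139 CPM in mutant libraries, and it was called higher (log2 fold change 0.89, SE 0.10, edgeR adjusted p = 0.0313). With 1 intact allele in the label, a higher *Notch1* level is opposite to what the allele number alone would give. The counts are per gene and do not tell which allele a read came from, and the cause was not tested.

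The tissue label was read from marker lists. The 13 Myocardial markers summed to between 20300 and 40800 CPM per library, with *Myh7* the most abundant at a mean of 6910 CPM, so cardiomyocyte RNA was present in all 6 libraries. Mesenchymal markers (9 genes, *Col3a1* the most abundant at 2916 CPM), Vascular smooth muscle markers (8 genes, *Acta2* at 1303 CPM) and Endothelial markers (9 genes, *Pecam1* at 223 CPM) were present as well. The tissue was a mixture, and a lower level of a junction gene in a library may come from fewer cells of a type or from less RNA per cell, which cannot be told apart in bulk RNA.

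Per kilobase of exon the 10 genes spanned a wide range, and *Ctnnb1* was the highest. It encodes beta-catenin, which links classical cadherins to alpha-catenin and also acts in Wnt signalling, and its mean over the 6 libraries was 136 CPM per kilobase. *Ctnna1* followed in every library, with *Ctnnb1* at 1.92 times its level. *Dsp* and *Cdh2* came next, and each neighbour in that order stood in the same order in 6 of 6 libraries. *Pkp2* (27.1 CPM per kilobase), *Tjp1* (23.4) and *Jup* (20.4) lay close together, and the order of *Pkp2* to *Tjp1* and of *Tjp1* to *Jup* each held in 5 of 6 libraries, so these neighbours did not differ beyond their spread. A wider step led down to *Dsg2*, which *Jup* exceeded 3.12 times. *Dsg2* was at 6.62, *Ctnna3* at 4.41 and *Dsc2* at 3.98 CPM per kilobase, and the last pair kept its order in 5 of 6 libraries. Among all genes tested, ranked by this level, *Ctnnb1* stood at percentile 97.5 and *Dsc2* at percentile 63.8.

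**Figure D1:**
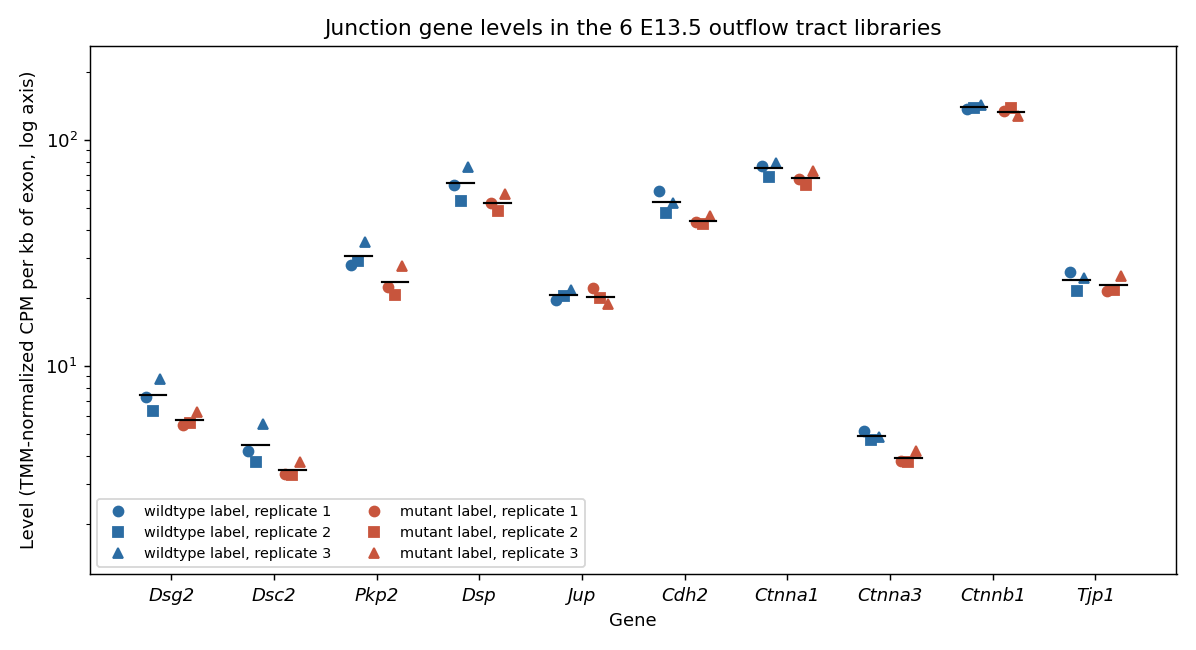
Level of the 10 junction genes in CPM per kilobase of exon on a log axis, with 1 point per library and a black bar at each group mean (n = 3). *Ctnnb1* is at 139 in wildtype and 133 in mutant libraries, *Dsc2* at 4.49 and 3.47, and the groups do not overlap for *Pkp2*, *Dsg2*, *Cdh2* and *Ctnna3*.

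The desmosomal cadherins come first, as the adhesive part of the desmosome. *Dsg2* (ENSMUSG00000044393) encodes desmoglein 2, the main desmoglein of cardiomyocytes, and was at 60.2, 52.1 and 72.5 CPM in the wildtype libraries and at 45.6, 46.3 and 51.5 CPM in the mutant libraries. All 3 mutant libraries lay below the lowest wildtype library, although the margin between the nearest libraries was narrow. The group means were 61.6 ± 10.3 and 47.8 ± 3.26 CPM (SD, n = 3 each), so the wildtype libraries were the more spread. The log2 fold change was −0.37 (SE 0.12), and edgeR did not call it (adjusted p = 0.231, and 0.00608 to 0.925 over 16 alternative fits). *Dsc2* (ENSMUSG00000024331) encodes desmocollin 2, its partner cadherin, and was at 22.2, 19.8 and 29.1 CPM in wildtype and at 17.6, 17.5 and 19.9 CPM in mutant libraries. Here the groups overlapped, since the highest mutant library slightly exceeded the lowest wildtype library. Its log2 fold change was also −0.37 (SE 0.14), with an edgeR adjusted p of 0.264. Without wildtype replicate 3 the log2 fold change was −0.23 for *Dsg2* and −0.20 for *Dsc2*. For both cadherins wildtype replicate 3 was the highest library and wildtype replicate 2 the lowest of its group.

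The ratio of these cadherins to each other moved less than either level. Per kilobase, *Dsc2* stood at 0.577, 0.596 and 0.630 of *Dsg2* in the wildtype libraries and at 0.607, 0.592 and 0.604 in the mutant libraries. The log2 ratio differed between the groups by 0.00 (exact permutation p = 1, two-sided).

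Among the plaque genes, *Pkp2* (ENSMUSG00000041957) encodes plakophilin 2, an armadillo protein that gathers desmoplakin at the cell border, and mouse embryos without it are known to die with heart defects. It was at 149, 156 and 188 CPM in wildtype and at 120.1, 109.9 and 148 CPM in mutant libraries. The groups did not overlap, but mutant replicate 3 came within a small distance of wildtype replicate 1. The means were 164 ± 21.0 and 126 ± 19.7 CPM (SD, n = 3 each), with a log2 fold change of −0.38 (SE 0.13) and an edgeR adjusted p of 0.233. With DESeq2 the adjusted p was 0.0999, and over the 16 alternative fits it ranged from 0.00283 to 0.958. *Pkp2* is also in a gene list that the study drew from these same libraries by comparing the same groups, so its difference here is not independent of that list.

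*Dsp* (ENSMUSG00000054889) encodes desmoplakin, which anchors intermediate filaments to the plaque. It was the most abundant desmosomal gene, at 611, 518 and 736 CPM in wildtype and at 506, 466 and 555 CPM in mutant libraries. Mutant replicate 3 lay above wildtype replicate 2, so the groups overlapped. The log2 fold change was −0.29 (SE 0.14), not called by edgeR (adjusted p = 0.330, and 0.00355 to 0.984 over the alternative fits). It was −0.15 without wildtype replicate 3 and −0.18 with library size scaling alone.

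*Jup* (ENSMUSG00000001552) encodes plakoglobin, an armadillo protein found in both junction types, and its level was the most even of the desmosomal genes. It was at 126, 131 and 139.6 CPM in wildtype and at 142, 128 and 121 CPM in mutant libraries, with the highest and the lowest library both in the mutant group. The log2 fold change of −0.02 (SE 0.10) was smaller than its error, and it was above 0 with library size scaling alone or without wildtype replicate 3 or mutant replicate 3. An offset for the length and GC content of each gene gave −0.22 (SE 0.08, edgeR adjusted p = 0.243, and 0.0893 to 0.9997 over the alternative fits), so its value depended on the processing. Its close relative *Ctnnb1* was likewise flat, and *Jup* stood at 0.142, 0.148 and 0.153 of *Ctnnb1* per kilobase in wildtype and at 0.165, 0.144 and 0.147 in mutant libraries. The log2 difference of this ratio was 0.04 (exact permutation p = 0.7). The ratio of *Pkp2* to *Dsp* was 0.440, 0.542 and 0.462 in wildtype and 0.428, 0.425 and 0.480 in mutant libraries, and these groups overlapped as well (log2 difference −0.11, exact permutation p = 0.5). This difference was −0.17 without wildtype replicate 1 and −0.02 without wildtype replicate 2.

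Of the adherens junction genes, *Cdh2* (ENSMUSG00000024304) encodes N-cadherin, the classical cadherin of cardiomyocytes, which many mesenchymal and neural cells also make. It was at 481, 384 and 423 CPM in wildtype and at 351, 342 and 371 CPM in mutant libraries, so all mutant libraries lay below all wildtype libraries. The means were 429.6 ± 49.0 and 354 ± 14.8 CPM (SD, n = 3 each). The log2 fold change was −0.28 (SE 0.11), with an edgeR adjusted p of 0.267 (0.00615 to 0.842 over the alternative fits). With library size scaling alone it was −0.18, and without wildtype replicate 1 it was −0.19. Unlike the desmosomal genes with lower values, *Cdh2* was highest in wildtype replicate 1 and not in wildtype replicate 3.

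The alpha-catenins couple the cadherin complex to actin, *Ctnna1* (ENSMUSG00000037815) in most tissues and *Ctnna3* (ENSMUSG00000060843) mainly in heart and testis. *Ctnna3* was at 37.4, 33.9 and 35.0 CPM in wildtype and at 27.3, 27.2 and 30.3 CPM in mutant libraries. These groups were apart and each was tight, at 35.4 ± 1.75 and 28.3 ± 1.73 CPM (SD, n = 3 each). Its log2 fold change of −0.33 (SE 0.10) had the smallest p of the 10 genes, 0.00654 before and 0.200 after adjustment in edgeR, and 0.0831 after adjustment in DESeq2. Over the 16 alternative fits its adjusted p ranged from 0.0110 to 0.783. *Ctnna1* was at 491, 439 and 509 CPM in wildtype and at 429.8, 406 and 469 CPM in mutant libraries, which overlapped (log2 fold change −0.14, SE 0.11, edgeR adjusted p = 0.538). That fold change was −0.04 with library size scaling alone, −0.02 with the Myocardial marker level as a covariate and −0.09 without mutant replicate 2. Per kilobase, *Ctnna3* stood at 0.0676, 0.0688 and 0.0611 of *Ctnna1* in wildtype and at 0.0566, 0.0597 and 0.0574 in mutant libraries. Of the 5 ratios of related genes, it alone had groups that did not overlap. The log2 difference was −0.18, and the exact permutation p of 0.1 is the smallest that 3 libraries against 3 allow (0.5 after Benjamini-Hochberg adjustment over the 5 ratios).

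*Ctnnb1* (ENSMUSG00000006932) was the steadiest of the 10 genes, at 712, 718 and 737 CPM in wildtype and at 695, 715 and 662 CPM in mutant libraries. Mutant replicate 2 lay within the wildtype range, and the log2 fold change was −0.06 (SE 0.10, edgeR adjusted p = 0.787), turning to 0.04 with library size scaling alone. It was −0.11 with the length and GC offset and −0.04 without mutant replicate 3. The ratio of *Cdh2* to *Ctnnb1* per kilobase was 0.435, 0.344 and 0.370 in wildtype and 0.325, 0.308 and 0.360 in mutant libraries. A mutant library stood above the lowest wildtype library, so this ratio did not separate the groups (log2 difference −0.21, exact permutation p = 0.2, and −0.11 without wildtype replicate 1).

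*Tjp1* (ENSMUSG00000030516) encodes ZO-1, a scaffold that joins tight, adherens and gap junctions to actin and binds connexin 43. It was at 203, 167 and 191 CPM in wildtype and at 167, 169.7 and 196 CPM in mutant libraries. Both groups covered nearly the same range, and the log2 fold change of −0.07 (SE 0.11, edgeR adjusted p = 0.784) was 0.03 with library size scaling alone and −0.13 with the length and GC offset. It ran from −0.15 without mutant replicate 3 to −0.01 without wildtype replicate 1.

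Counted together, edgeR called 0 of the 10 genes, beside 6 of 28157 genes in either direction (0.0213%), and DESeq2 called 0 of the 10, beside 749 of the 17781 genes that it gave an adjusted p (4.21%). Before adjustment, edgeR gave p under 0.05 to 5 of the 10 genes, *Pkp2*, *Dsg2*, *Dsc2*, *Cdh2* and *Ctnna3*, all with lower values in the mutant under TMM and library size scaling alike, and to 7.83% of all genes with lower and 8.23% with higher values. Without wildtype replicate 1 edgeR called 0 of the 10 genes, beside 2593 of 27450 genes (9.45%). Blocking on the title numbers of the replicates called 1 of the 10 (5.6% of all genes), and on the description numbers 0 (0.295%). The title block with the length and GC offset called 5 of the 10 (7.94% of all genes). The labels tie the libraries of a block by number only, and what else they share is not known. For 4 of the 10 genes every mutant library lay below every wildtype library, while over all genes 8.94% had this order and 10.7% the opposite one. These 4 were *Pkp2*, *Dsg2*, *Cdh2* and *Ctnna3*. The count of 5 genes with an unadjusted p under 0.05 was not stable. It was 1 with library size scaling alone or without mutant replicate 1, and 2 without wildtype replicate 3 or without mutant replicate 2. It was 8 with the length and GC offset.

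All 10 fitted log2 fold changes were below 0, except that *Jup*, *Ctnnb1* and *Tjp1* were above 0 with library size scaling alone and *Tjp1* with the Myocardial marker level as a covariate, and *Jup* also without wildtype replicate 3 or mutant replicate 3. Their median was −0.28, against 0.01 over all genes tested and −0.03 over those averaging 1 CPM or more. Library size scaling shifted the median of all genes to 0.11, and all 10 genes lay below that shifted median, with a median of −0.18 among the 10. Over genes averaging 1 CPM or more that shifted median was 0.073, and *Jup* (0.085) lay above it. Under TMM *Jup* (−0.021) also lay above the median of such genes (−0.030). The median of the 10 was −0.17 without wildtype replicate 3, the largest move that leaving out 1 library gave. In the main fit 48.8% of all genes and 54.7% of those averaging 1 CPM or more had a value below 0, so a lower value by itself was common.

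**Figure D2:**
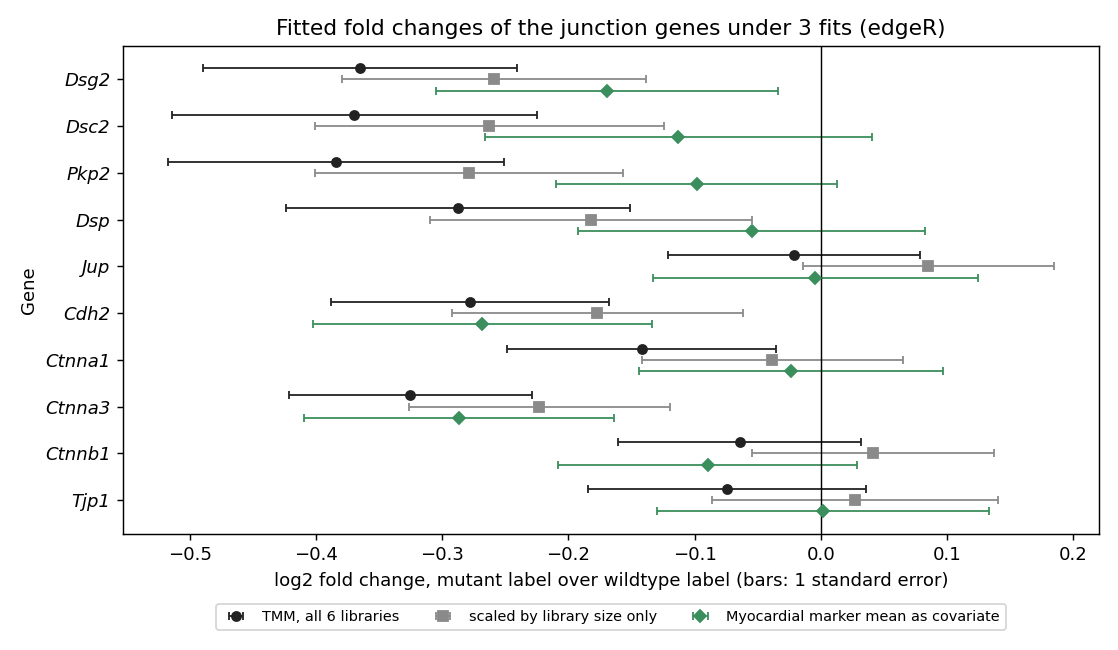
Log2 fold change (mutant over wildtype, points) with 1 SE to each side (bars) for the 10 junction genes under TMM scaling, library size scaling alone, and TMM scaling with the Myocardial marker level as a covariate. The median of the 10 is −0.28, −0.18 and −0.09 in turn, and *Jup*, *Ctnnb1* and *Tjp1* are above 0 with library size scaling alone.

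Library by library, the 10 genes were not moved evenly. After each gene was centred on its mean over the 6 libraries, the median log2 deviation of the 10 was 0.12, −0.04 and 0.15 in the wildtype libraries and −0.15, −0.20 and −0.06 in the mutant libraries. Wildtype replicate 3 held the highest value for 6 of the 10 genes and mutant replicate 2 the lowest for 6. Within groups the spread (pooled SD of log2 CPM) was 0.21 for *Dsc2* and 0.20 for *Pkp2* and *Dsp*, but 0.08 for *Ctnna3* and 0.04 for *Ctnnb1*. The desmosomal genes other than *Jup* therefore varied more between libraries of 1 group than the catenins did.

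The Myocardial markers varied over the same libraries. Their mean log2 deviation was 0.00, 0.14 and 0.62 in the wildtype libraries and −0.27, −0.61 and 0.12 in the mutant libraries. Wildtype replicate 3 was thus the highest and mutant replicate 2 the lowest here too. The mean weights each marker alike, and *Nppa*, named after its values were seen, spread widely. *Nppa* was at 42.9, 34.8 and 212 CPM in wildtype and at 25.7, 7.84 and 130 CPM in mutant libraries. No mean without *Nppa* was computed, and the same mean served below as reference and covariate. Summed, the 13 genes came to 28880, 31130 and 40800 CPM in wildtype and to 24170, 20300 and 28410 CPM in mutant libraries, and the highest mutant library lay close to the lowest wildtype library. The fitted values of 13 of 13 were below 0 with a median of −0.52, or 12 of 13 with a median of −0.41 under library size scaling alone. No Myocardial marker was called by edgeR, 10 had an unadjusted p under 0.05, and DESeq2 called 6, all with lower values. Their part in the lower values of the junction genes was not tested.

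The Mesenchymal markers went the other way in group mean, but not in every library. Mutant replicate 3 was at 0.12 for both lists, where the Myocardial value includes the high *Nppa* of that library. Wildtype replicate 1 was below 0 for neither list. The mean log2 deviation of the Mesenchymal markers was 0.21, −0.35 and −0.83 in wildtype and 0.41, 0.45 and 0.12 in mutant libraries, the lowest being wildtype replicate 3. Summed, they came to 9316, 6524 and 4821 CPM in wildtype and to 10280, 11260 and 8722 CPM in mutant libraries. All 9 had fitted values above 0 under both scalings, with a median of 0.57. None was called by edgeR, 7 had an unadjusted p under 0.05, and DESeq2 called 1. Their part in the result was not tested.

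**Figure D3:**
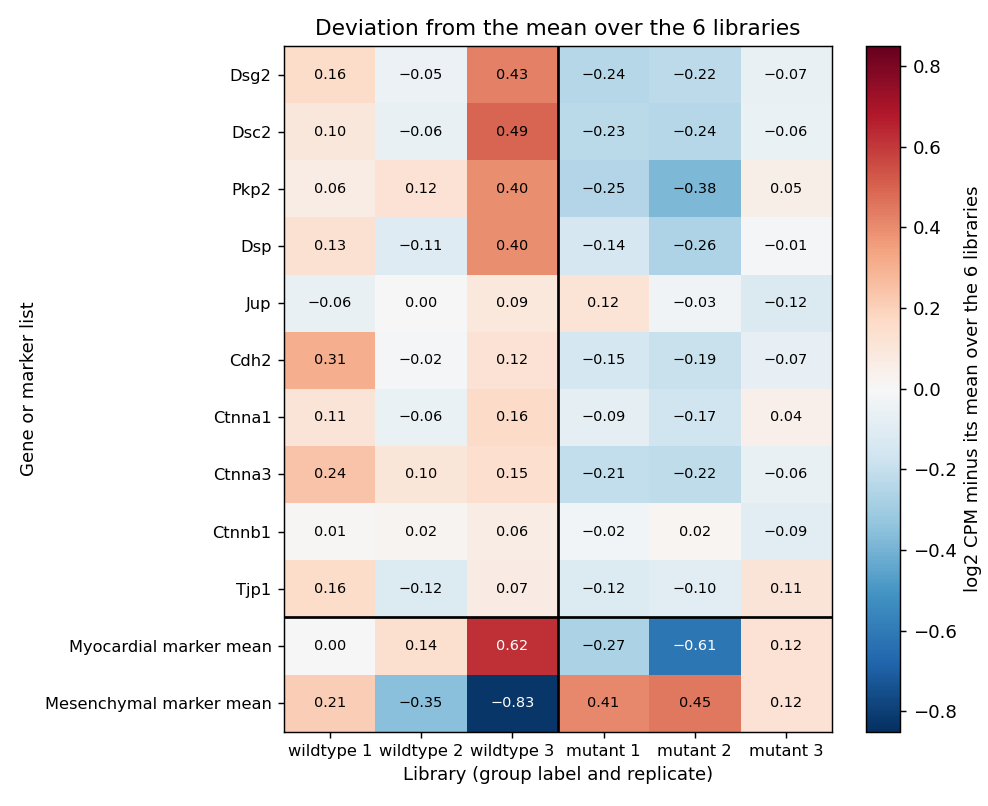
Heat map of log2 CPM minus its mean over the 6 libraries for the 10 junction genes and for the mean of the Myocardial and Mesenchymal marker lists, with 1 column per library. Wildtype replicate 3 is the highest for Myocardial markers (0.62) and for 6 of the 10 genes, and the lowest for Mesenchymal markers (−0.83).

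The junction genes were next read relative to the Myocardial mean. On this scale *Pkp2* was at 0.06, −0.02 and −0.22 in the wildtype libraries and at 0.02, 0.23 and −0.07 in the mutant libraries (log2, centred), and the groups overlapped. The same held for all 10 genes, whose mutant groups lay between 0.12 (*Pkp2*) and 0.48 (*Jup*) above wildtype in log2 mean, with every pair of groups overlapping. With the Myocardial mean as a covariate in the edgeR fit, the log2 fold change was −0.10 for *Pkp2*, −0.05 for *Dsp*, −0.17 for *Dsg2* and −0.11 for *Dsc2*. *Cdh2* at −0.27 and *Ctnna3* at −0.29 kept most of their size, and *Ctnnb1* was at −0.09. With this covariate edgeR called 0 of the 10 genes, beside 5 of 28157 genes (0.0178%). Of the 10, 1 had an unadjusted p under 0.05 (*Ctnna3*, adjusted p = 0.783 in edgeR). DESeq2 was not run with this covariate. The median of the 10 was −0.09 in this fit, in which *Tjp1* was at 0.00 and the other 9 were below 0.

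The remaining marker lists bear on which other cells the pools held, and edgeR called 0 genes in each of them. Of the 9 Endothelial markers 7 had fitted values below 0 (median −0.04), but 2 under library size scaling alone. *Egfl7*, named after its values were seen, was the only marker of the list with an unadjusted p under 0.05 and had a higher value under TMM (0.36), and DESeq2 called 0. Vascular smooth muscle markers, which the mesenchyme of the tract partly shares, had a median of 0.20 under TMM (8 genes, 4 with an unadjusted p under 0.05, of which 3 higher and 1 lower, and 1 called by DESeq2). The gene that DESeq2 called, *Myh11*, averaged only 2.97 CPM. The most abundant genes of the list were below 0, *Acta2* at −0.25 and *Cnn1* (304 CPM) at −0.29. The list summed to 1663, 1888 and 2104 CPM in wildtype and to 1709, 1555 and 1697 CPM in mutant libraries. Blood markers summed to 5304, 11800 and 10110 CPM in wildtype and to 6138, 6091 and 6231 CPM in mutant libraries, with *Hba-a2* the most abundant at 2204 CPM. Wildtype replicate 1 thus held as little blood RNA as the mutant libraries did. The 8 Blood markers had a median of −0.56 under TMM (6 with an unadjusted p under 0.05, 2 called by DESeq2). Liver markers summed to 97.6 CPM in wildtype replicate 2, to 28.1 CPM in wildtype replicate 3 and to between 2.12 and 6.72 CPM in the other libraries (*Afp* at a mean of 10.8 CPM). The 7 Liver markers had a median of −2.55 (6 with an unadjusted p under 0.05, 1 called by DESeq2).

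Epithelia are rich in desmosomes, and their markers were scarce in these pools. The list summed to 33.5, 42.5 and 38.9 CPM in wildtype and to 32.7, 32.3 and 28.6 CPM in mutant libraries, of which *Krt18*, which embryonic heart muscle and mesothelium may also make, held 21.4 CPM on average. Of the 12 listed genes 10 were tested and 8 of these had a mean under 1 CPM. The fitted median was −0.23 under TMM (2 with an unadjusted p under 0.05, 0 called by DESeq2). It was −0.13 with library size scaling alone, −0.35 without wildtype replicate 1 and −0.37 without mutant replicate 1. Epicardial markers (7 genes, median −0.20, *Upk3b* at 102 CPM, 0 with an unadjusted p under 0.05) summed to between 221.7 and 362 CPM. Macrophage markers (9 genes, median 0.05, *Csf1r* at 33.7 CPM, 1 with an unadjusted p under 0.05, higher) summed to between 104.8 and 164 CPM. Neuronal markers (8 genes, median 0.14, *Gap43* at 27.0 CPM, 1 with an unadjusted p under 0.05 and 1 called by DESeq2) summed to no more than 64.4 CPM in any library. Neural crest and glial markers (5 of 6 genes listed, median 0.37, *Erbb3* at 24.1 CPM, 1 with an unadjusted p under 0.05, higher) summed to no more than 40.5 CPM. Several marker medians turned on 1 library. Without wildtype replicate 3 the median was −0.32 for Myocardial, 0.36 for Mesenchymal and −0.01 for Neuronal markers. Without wildtype replicate 2 it was −0.35 for Blood, −1.11 for Liver, 0.14 for Epicardial, 0.62 for Neuronal and 0.26 for Macrophage markers. Without wildtype replicate 1 it was −0.87 for Blood, −0.39 for Epicardial, 0.65 for Neural crest and glial and 0.86 for Mesenchymal markers. In that fit Endothelial markers were at −0.19 and Macrophage markers at −0.09, while the Endothelial median was above 0 without wildtype replicate 2 or 3. Vascular smooth muscle markers were at 0.09 without mutant replicate 2 and 0.33 without wildtype replicate 2. With wildtype replicate 1 left out, edgeR called 7 Myocardial, 7 Blood and 6 Liver markers and *Krt18* lower. It called 8 Mesenchymal markers, *Myh11*, *Rgs5*, *Tubb3* and *Erbb3* higher, and the genes outside the lists' most abundant are named after their values were seen. The part of these cells in the junction gene values was not tested.

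Other genes of the same structures were read from wider lists. The list of other desmosome genes held 12, of which 9 were in the table and 5 averaged 1 CPM or more. *Perp*, a membrane protein of desmosomes, was the highest of them at 80.5 ± 12.8 CPM in wildtype and 61.1 ± 16.6 CPM in mutant libraries (SD, n = 3 each), with a log2 fold change of −0.40 (SE 0.18, edgeR adjusted p = 0.312). *Ppl*, which encodes periplakin, was at 7.18 ± 1.19 and 5.05 ± 0.384 CPM (SD, n = 3 each) and its groups did not overlap (log2 fold change −0.51, edgeR adjusted p = 0.224). The related *Evpl* had a value above 0 (0.52, SE 0.22). Of the 5 genes, 2 had values below 0 and 3 above, and *Dsg1a* and *Dsg3*, cadherins of stratified epithelia, had at most 3 reads in any library and are named after their values were seen. In this list edgeR and DESeq2 called 0, and 2 had an unadjusted p under 0.05, 1 in each direction.

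The list of other adherens junction genes held 19, with a median of −0.07. Of these, 12 had values below 0 and 7 above, but 8 and 11 under library size scaling alone, so no direction held for the list. *Cdh5*, the cadherin of endothelial cells, was at 257.9 ± 35.1 CPM in wildtype and 222.9 ± 12.7 CPM in mutant libraries (SD, n = 3 each; log2 fold change −0.21, SE 0.12, edgeR adjusted p = 0.398). *Pkp4*, an armadillo protein of adherens junctions, was level at 158.0 ± 10.8 and 158.3 ± 3.70 CPM. *Cdh3* was at 107.7 ± 3.64 and 102.5 ± 21.7 CPM (log2 fold change −0.07). Neither edgeR nor DESeq2 called any of the list (0 each), and 2 had an unadjusted p under 0.05, both with higher values under TMM.

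The list of intercalated disc partners held 18 genes, of which 13 had values below 0 and 5 above under both scalings. Their median was −0.32 (−0.21 with library size scaling alone), near that of the 10 junction genes, but −0.16 without wildtype replicate 3 and −0.20 without mutant replicate 2. *Des*, the muscle intermediate filament that desmoplakin anchors, was at 533 ± 140 CPM in wildtype and 386 ± 56.7 CPM in mutant libraries (SD, n = 3 each), with a log2 fold change of −0.47 (SE 0.18, edgeR adjusted p = 0.255). *Popdc2* and *Bves*, membrane proteins of the Popeye family, both had a log2 fold change of −0.34, from 207 to 163 CPM and from 162.5 to 128.6 CPM in the group means. Genes of this list such as *Des* are also in the list that the study drew from these libraries. EdgeR and DESeq2 called 0 of the 18, and 7 had an unadjusted p under 0.05, 6 of them with lower values. With the Myocardial mean as a covariate 8 had values below 0 and 10 above, with a median of 0.03. Without wildtype replicate 1, edgeR called *Des* and *Nrap* lower and *Gjc1* higher, *Cdh5* lower and *Ctnna2* higher among the adherens junction genes, and *Ppl* among the desmosome genes, all named after their values were seen.

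The genes most like *Pkp2* over the 6 libraries were ranked by Pearson r of log2 CPM, over the 11285 genes averaging 10 CPM or more, as a description without a test. *Sh3bgr* (r = 0.999), *Gm11407* (0.998), *Psme1* (0.998), *Ndufa10* (0.997) and *Aifm1* (0.997) came first. Every r rests on the same 6 libraries, which differ in group and in marker levels, and the cause of the likeness was not tested. Among the junction genes the nearest were *Dsc2* (r = 0.90, rank 1274), *Dsg2* (0.89, rank 1374) and *Dsp* (0.88, rank 1515). Both desmosomal cadherins and *Dsp* thus varied with *Pkp2*, yet many other genes stood nearer to it. *Ctnna1* (0.87) and *Ctnna3* (0.81) followed, then *Cdh2* (0.66) and *Tjp1* (0.54), while *Ctnnb1* (0.31) and *Jup* (0.08) were least like it.

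The positions of the genes (mm10) bear on what they share. *Dsg2* (chromosome 18, 20558074 to 20604521, plus strand) and *Dsc2* (20030633 to 20059554, minus strand) lie in the desmosomal cadherin cluster, 498519 bp apart. *Cdh2* (16588877 to 16809246, minus strand) and *Ctnna1* (35118859 to 35254779, plus strand) are on the same chromosome. *Pkp2* lies on chromosome 16, *Tjp1* on 7 and *Ctnnb1* on 9, and *Ctnna3* on chromosome 10 spans the longest interval, from 63430098 to 65003667.

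A few of the genes share exon bases with another gene, which could move reads between them or leave such reads uncounted. The paper does not say how reads over shared bases were counted. *Ctnnb1* shares 759 bp (14.6% of its exon bases) with *Ulk4* on the opposite strand, and *Ulk4* was at a mean of 2.70 CPM, 0.381% of the *Ctnnb1* level. *Dsp* shares 499 bp with *Gm10129*, *Dsg2* shares 330 bp with the antisense gene *Gm16090*, and *Ctnna1* shares 95 bp with *Lrrtm2*. The highest mean among these 3 neighbours was 0.294 CPM. Their levels were small against those of the junction genes, and the other 6 genes share exon bases with no listed gene. Low levels of the neighbours do not tell how many reads a junction gene may have lost over shared bases. Exon lengths ran from 5192 bp for *Ctnnb1* to 9659 bp for *Dsp*. GC content, taken from the longest annotated transcript of each gene, ran from 42.5% for *Dsc2* to 58.8% for *Jup*.

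Promoter windows from RefSeq (GRCm38.p6, 250 bases before to 50 bases after a transcription start) were found for 5 of the 10 genes, in 8 windows. These were *Tjp1*, *Jup* and *Dsp* with 1 window each, *Ctnnb1* with 2 and *Ctnna3* with 3. Base composition differed among them. The *Ctnnb1* windows held 75.3% and 75.0% G and C with 46 and 51 CpG, against a median of 52.7% and 7 CpG over all 32851 windows. The *Ctnna3* windows differed among themselves, the first start at 67.0% with 39 CpG and the later ones at 46.0% and 47.3% with 7 and 2.

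The windows were searched on both strands for letters bound by factors of the heart and of Notch signalling. A GATA match (the letters AGATAA, the letters AGATAG, the letters TGATAA or the letters TGATAG) was in 3 of the 8 windows, of *Ctnna3*, *Jup* and *Tjp1*, and in 29.8% of all windows. An E-box (CANNTG) was in 2 of 8, of *Ctnna3* and *Dsp*, and in 72.3% of all. The TEAD letters GGAATG were in 1 of 8, of *Ctnna3*, and in 14.7% of all. The letters TGGGAA, bound by the Notch effector RBPJ and sharing GGAA with the TEAD letters, were in 1 of 8, of *Dsp*, and in 25.6% of all. A match is a run of letters and not a measured binding site. Of the 5 genes, *Dsp* and *Ctnna3* had the largest fitted differences under TMM and *Jup* the smallest, so their windows are printed, 5′ to 3′ on the strand of the gene. With library size scaling alone or with the length and GC offset *Jup* was not the smallest. Capitals mark the RBPJ letters in *Dsp* (chr13:38151044-38151343, plus strand), the TEAD letters at the middle start of *Ctnna3* (chr10:63457261-63457560, plus strand), and the GATA letters at its last start (chr10:63820805-63821104, plus strand, read on the opposite strand) and in *Jup* (chr11:100397741-100398040, minus strand).
Dsp: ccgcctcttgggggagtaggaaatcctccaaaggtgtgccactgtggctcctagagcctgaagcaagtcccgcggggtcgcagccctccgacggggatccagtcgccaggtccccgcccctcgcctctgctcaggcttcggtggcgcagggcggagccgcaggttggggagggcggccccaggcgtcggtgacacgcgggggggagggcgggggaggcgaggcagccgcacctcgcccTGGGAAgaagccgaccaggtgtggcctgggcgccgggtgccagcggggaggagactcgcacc
Ctnna3 middle start: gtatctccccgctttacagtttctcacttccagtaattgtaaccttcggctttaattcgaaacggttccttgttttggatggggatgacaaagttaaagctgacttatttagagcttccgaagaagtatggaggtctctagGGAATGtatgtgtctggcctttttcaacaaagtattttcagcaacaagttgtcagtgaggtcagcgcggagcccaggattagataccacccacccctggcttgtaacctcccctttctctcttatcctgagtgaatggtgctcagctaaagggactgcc
Ctnna3 last start: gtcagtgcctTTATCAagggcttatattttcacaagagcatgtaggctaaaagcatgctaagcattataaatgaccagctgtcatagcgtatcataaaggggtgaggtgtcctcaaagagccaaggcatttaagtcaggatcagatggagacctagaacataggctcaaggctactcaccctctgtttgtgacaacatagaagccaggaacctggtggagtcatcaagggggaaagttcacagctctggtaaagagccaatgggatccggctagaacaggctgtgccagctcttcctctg
Jup: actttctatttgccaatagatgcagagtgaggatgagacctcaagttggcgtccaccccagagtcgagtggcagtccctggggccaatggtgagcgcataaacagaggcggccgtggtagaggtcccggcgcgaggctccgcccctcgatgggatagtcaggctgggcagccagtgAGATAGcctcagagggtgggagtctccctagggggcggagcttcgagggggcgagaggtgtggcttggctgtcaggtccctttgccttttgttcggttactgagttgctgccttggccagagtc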

How the data were processed

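RNA of 6 libraries was sequenced by the authors (stranded total RNA kit), aligned with TopHat2 2.1.0 and counted per gene with GenomicAlignments, and the deposited raw counts were used. The annotation release and the strand of counting are not stated. Libraries were grouped by the labels. Titles and descriptions exchange the library numbers of wildtype replicates 2 and 3, and the titles were followed, so each statement on these replicates rests on the titles, while the groups do not. All 28157 genes with more than 5 reads summed were fitted with edgeR 4.0.16 in R 4.3.3 (TMM, quasi-likelihood test, Benjamini-Hochberg, two-sided), and DESeq2 1.42.0 gave an alternative test. The code was tested on simulated data. Totals of 34729103 to 44387490 reads leave counting error small, and the floor of 3 counts covers counting error only. Exon lengths and positions came from GENCODE vM21, which held 28723 of the 28777 genes. Single values were compared by exact permutation of log2(CPM + 0.5), and log2 deviations used a prior count of 2. Alternatives changed the test, scaling, filter, threshold, replicate block, GC and length offset, Myocardial covariate, pseudocount and libraries. The 10 members were named in full, with *Notch1* and *Nos3*, the 3 genes of each wider list with the highest CPM per kilobase and any that edgeR or DESeq2 called, the most abundant gene of each marker list, and the 5 genes most like *Pkp2*. The members and lists were chosen with earlier results of these data known. The 54 genes without annotation had no length, so they were left out of the ranking per kilobase. Promoters came from RefSeq.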

Additional observations from a re-analysis of the deposited data

How the results depend on the processing

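Of 160 values of single genes under the alternatives, 148 kept their direction and side of the threshold, 6 reversed and 6 became called, and the cause was not tested. DESeq2 called 749 genes, 410 higher and 339 lower, and none of the 10. Library size scaling gave a median of −0.18 for the 10 and values above 0 for *Jup* (0.085), *Ctnnb1* (0.041) and *Tjp1* (0.027). The Myocardial covariate gave a median of −0.094, with *Tjp1* at 0.0020. Blocking on the title numbers of the replicates called 1577 genes and 1 of the 10, *Pkp2* (log2 fold change −0.39, adjusted p = 0.0361 in edgeR, 0.00283 to 0.958 over all alternatives), and blocking on the description numbers, which exchange wildtype replicates 2 and 3, called 83 genes and none of the 10. Libraries of a number correlated at 0.096, 0.16 and 0.42 over 16655 genes after their group means were removed. Wildtype replicate 1 correlated more with mutant replicate 2 (0.277), and the remaining pairs of unlike number lay between −0.441 and −0.00712. The labels tie these libraries by number only, and whether they are paired was not tested. The block with the GC and length offset called 2235 genes and 5 of the 10, *Pkp2*, *Dsp*, *Dsg2*, *Cdh2* and *Ctnna3*. The same offset without the block called none of the 10, with a median of −0.36. An adjusted p of at most 0.01 left 2 genes. Leaving out 1 library gave 1 to 2593 called genes (2593 without wildtype replicate 1), a median of −0.35 to −0.17, *Jup* at −0.089 to 0.031, and log2 ratio differences of −0.019 to 0.078 for *Jup* to *Ctnnb1* −0.029 to 0.034 for *Dsc2* to *Dsg2*, −0.17 to −0.02 for *Pkp2* to *Dsp*, −0.28 to −0.11 for *Cdh2* to *Ctnnb1* and −0.24 to −0.15 for *Ctnna3* to *Ctnna1*. A pseudocount of 2 left all 10 exact p unchanged. Each of the 10 had at least 655 reads per library, and what limits the calls was not tested.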
